A study of Caenorhabditis elegans with 6 samples.

Results

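A set of 8 genes was followed, of 45461 gene names in the count tables: gpr-1 (F22B7.13), gpr-2 (C38C10.4), lin-5 (T09A5.10), goa-1 (C26C6.2), gpa-16 (Y95B8A.5), let-99 (K08E7.3), ric-8 (Y69A2AR.2) and egl-30 (M01D7.7). They encode the machinery that pulls on spindle poles from the cell cortex and the heterotrimeric G proteins tied to it, and they were selected by sequence name with earlier results of these libraries already known. The levels of egl-30 in both comparisons with control had been singled out in those results, so its values against control are given as a description with no test. By the annotation, gpr-1 and gpr-2 lie on chromosome III, lin-5 on II, let-99 and ric-8 on IV, and the G alpha genes goa-1, gpa-16 and egl-30 on I. All 8 genes passed the filter on low counts, and their lowest count in any library was 157 (gpr-1 in red-head replicate 2).

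The germlines came from a Caenorhabditis elegans cross that uses extra GPR-1 to alter chromosome inheritance. Red-head worms were F1 animals from mothers of HBR1281, which carry the oxTi411 insertion on chromosome III, where the eft-3p promoter drives TdTomato::H2B with the unc-54 3'UTR beside Cbr-unc-119(+), and the transgene ddIs32, a yfp::gpr-1 fusion with a recoded synthetic sequence and artificial introns. These mothers were mated to HBR1280 males. Their germlines held only the chromosomes of the HBR1280 sperm, and so did not carry ddIs32. Offspring were F2 animals of red-head hermaphrodites, and control germlines came from HBR1280 hermaphrodites with chromosomes of both parents. By the study's methods the germlines of all 3 groups had the genotype of HBR1280. This strain carries oxTi75, where eft-3p drives GFP::H2B with the tbb-2 3'UTR beside unc-18(+). The red-head soma is a mosaic, with maternal chromosomes in the cells that descend from the other daughter of the first division. Each group had 2 libraries of total RNA from pooled distal gonad arms of day 1 adults kept at 24 °C, cut at the gonad bend in late pachytene.

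In the 1-cell worm embryo, GPR-1 and GPR-2 are near-identical proteins that bind inactive G alpha subunits at the cortex and, through the coiled-coil protein LIN-5, a relative of vertebrate NuMA, anchor dynein. Dynein then pulls on the microtubules that reach the cortex, and an unequal pull places the spindle off centre and makes the division asymmetric. GOA-1 and GPA-16 are the G alpha subunits of this complex, RIC-8 activates or helps to localise G alpha subunits, and LET-99 limits where GPR-1/2 act. EGL-30 is the worm Gq alpha subunit, best known for driving phospholipase C beta signalling in neurons and muscle, where GOA-1 opposes it.

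The libraries held 2721055 to 11310273 counts on genes, and the shallowest was red-head replicate 2. Levels are given as CPM, counts scaled to the same total in each library, and the limit that a count of 0 allows, 3 counts, was 0.265 to 1.10 CPM, far under the level of each of the 8 genes. Germline markers were abundant, with a summed level of 11161 and 13605 CPM over 12 genes in red-head germlines, 10604 and 11690 CPM in offspring germlines and 10625 and 11348 CPM in control germlines. Intestinal markers, led by the vitellogenins, summed to 3243 and 6217 CPM in red-head germlines, 1331 and 207 CPM in offspring germlines and 508 and 357 CPM in control germlines. All 10 tested intestinal markers of 13 listed were above both control libraries in both red-head libraries, against 18.4% of all tested genes. The tested markers include vit-1 to vit-6, which belong to 1 gene family and were at 31.2 CPM or more in each control library. The filter on low counts covered all 6 libraries, so a marker low in control could be tested because of its red-head or offspring level. For ifb-2 (0.807 and 0.588 CPM in control) and spp-3 (0.672 and 1.37 CPM in control), lying above control may be partly set by this filter. The comparison with 18.4% is thus a description. In pooled arms, fewer cells of a type and less RNA per cell cannot be told apart.

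Of the 8 genes, 7 had similar levels in the 3 groups, with fitted fold changes between 0.86 and 1.195 in every comparison. The exception was egl-30, at 1.87-fold in red-head germlines and 1.87-fold in offspring germlines relative to control. The force generator genes gpr-1, gpr-2 and lin-5 had fitted fold changes of 0.87 to 1.07 against control in both comparisons. In red-head germlines gpr-1 was slightly lower than in control, and goa-1 was slightly higher. Neither difference passed the test.

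The gpr-1 RNA was at 62.7 and 58.3 CPM in red-head germlines, 62.0 and 77.9 CPM in offspring germlines and 67.6 and 71.4 CPM in control germlines. Both red-head libraries lay below both control libraries, while the offspring libraries lay on either side of them. The log2 fold change of gpr-1 was -0.19 ± 0.15 (SE) in red-head against control (Benjamini-Hochberg adjusted p = 0.834 in edgeR's quasi-likelihood test) and 0.00 ± 0.14 in offspring against control (adjusted p = 0.999, same edgeR test). The count tables have no separate row for the recoded ddIs32 sequence, and the germlines sampled here had the genotype without it.

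For gpr-2 the levels were 76.7 and 81.4 CPM in red-head germlines, 65.2 and 87.1 CPM in offspring germlines and 75.0 and 72.8 CPM in control germlines. Here both red-head libraries lay above both control libraries, but by little: the log2 fold change was 0.09 ± 0.15 (SE). The offspring libraries spanned the others, and gpr-2 had the widest gap between offspring replicates of the 8 genes, 0.42 on the log2 scale. Because gpr-1 and gpr-2 are near-identical copies, 50 bp reads may not always be assignable to 1 of them, so their sum is given too. The deposited counts list 0 reads as not uniquely aligned in each library. Whether reads that match both genes were dropped or placed before counting is not given in the sources used here. If dropped, they are missing from the sum as well.

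Summed, the gpr genes stood at 139 and 140 CPM in red-head germlines, 127 and 165 CPM in offspring germlines and 143 and 144 CPM in control germlines. The red-head and control sums differed by less than the gap between the offspring replicates, with a log2 fold change of -0.04 ± 0.13 (SE) for red-head against control and 0.02 ± 0.13 for offspring against control. Within the pair, gpr-1 made up 45.0% (95% Clopper-Pearson interval 42.6 to 47.4) and 41.8% (36.7 to 46.9) of the counts in red-head germlines. It made up 48.7% (45.4 to 52.1) and 47.2% (43.1 to 51.4) in offspring germlines and 47.4% (44.4 to 50.5) and 49.5% (45.8 to 53.2) in control germlines. The share was lowest in the 2 red-head libraries, and the intervals of neighbouring values overlapped. These intervals cover counting error only.

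LIN-5 links GPR-1/2 to dynein, and its gene was the most abundant of the 8. It was at 393 and 429 CPM in red-head germlines, 377 and 436 CPM in offspring germlines and 397 and 418 CPM in control germlines. The 3 groups overlapped, and the log2 fold change was 0.01 ± 0.12 (SE) in red-head and -0.00 ± 0.12 in offspring, each against control. Per kb of transcript, lin-5 was 1.77 and 1.93 times the gpr sum in red-head germlines, 1.86 and 1.66 times in offspring germlines and 1.74 and 1.82 times in control germlines. The 3 groups overlapped in this ratio of the adaptor to its partners, and reads matching both gpr genes, if dropped, would raise it.

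**Figure D1:**
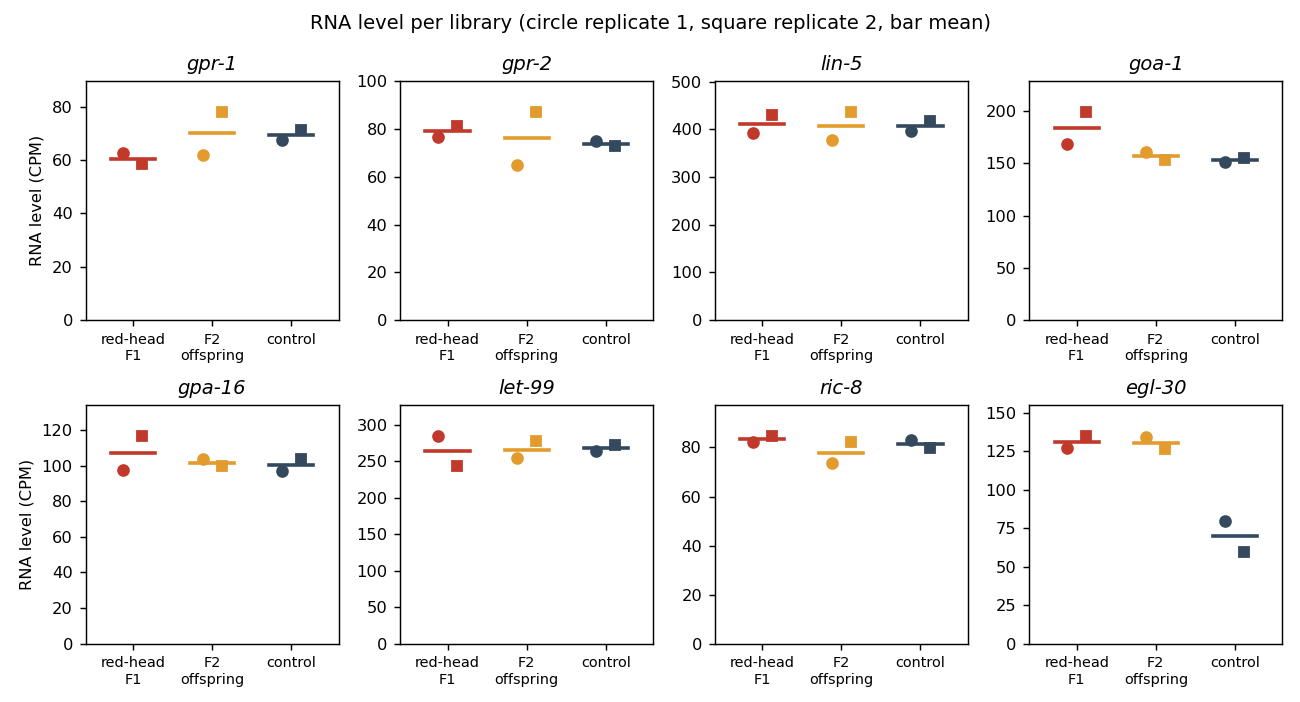
RNA level (CPM, linear axis from 0) of each of the 8 genes in the 6 libraries, with red-head F1, F2 offspring and control from left to right, a point per library and a bar for the mean of 2. The points of 7 genes lie close together, while egl-30 is at 126 to 135 CPM in the red-head and offspring libraries and at 79.6 and 59.6 CPM in control germlines.

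Among the G alpha genes, goa-1 was at 169 and 199 CPM in red-head germlines, 161 and 153 CPM in offspring germlines and 152 and 155 CPM in control germlines. Both red-head libraries were above all 4 others, and offspring and control overlapped. The log2 fold change of goa-1 was 0.26 ± 0.11 (SE) in red-head against control, with an unadjusted p of 0.048 and an adjusted p of 0.647 in edgeR's quasi-likelihood test, so it was not called. It was 0.14 without red-head replicate 2 and 0.39 without red-head replicate 1. For offspring against control it was 0.04 ± 0.11.

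Its partner gpa-16, a Gi-like subunit, was at 97.7 and 117 CPM in red-head germlines, 103 and 99.8 CPM in offspring germlines and 97.2 and 104 CPM in control germlines. The groups overlapped, with log2 fold changes of 0.09 ± 0.12 (SE) in red-head and 0.02 ± 0.12 in offspring, each against control. The counts of goa-1 were 1.73 and 1.71 times those of gpa-16 in red-head germlines, 1.56 and 1.54 times in offspring germlines and 1.56 and 1.498 times in control germlines. Replicates of this ratio were close and the red-head values were the highest, but the counting intervals of the libraries overlapped. As a share of both genes' counts, goa-1 was 63.3% (61.6 to 65.0) and 63.1% (59.7 to 66.3) in red-head against 60.9% (58.7 to 63.2) and 59.97% (57.3 to 62.6) in control (95% Clopper-Pearson intervals).

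RIC-8 is needed for G alpha function in the embryo. The ric-8 RNA was at 82.1 and 84.7 CPM in red-head germlines, 73.6 and 82.2 CPM in offspring germlines and 83.1 and 79.6 CPM in control germlines. The groups overlapped, and the log2 fold change was 0.03 ± 0.11 (SE) in red-head and -0.07 ± 0.11 in offspring, each against control.

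LET-99, a DEP domain protein that keeps GPR-1/2 out of a cortical band, was encoded by the second most abundant of the 8 RNAs. The let-99 RNA was at 285 and 244 CPM in red-head germlines, 254 and 278 CPM in offspring germlines and 265 and 273 CPM in control germlines. Both control values lay between the 2 red-head values and between the 2 offspring values, with log2 fold changes of -0.02 ± 0.11 (SE) in red-head and -0.02 ± 0.11 in offspring, each against control.

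The egl-30 RNA was at 127 and 135 CPM in red-head germlines, 134 and 126 CPM in offspring germlines and 79.6 and 59.6 CPM in control germlines. All 4 red-head and offspring libraries lay above both control libraries, and red-head and offspring overlapped. Of all tested genes, 18.4% had both red-head libraries above both controls, and 16.4% had both offspring libraries above them. The log2 fold change was 0.90 ± 0.15 (SE) in red-head against control and 0.90 ± 0.15 in offspring against control. Pairing each red-head library with each control library gave differences of 0.67 to 1.18, and each offspring library with each control library 0.67 to 1.17. The 2 comparisons share the control libraries, which were the farthest apart for egl-30 of the 8 genes, at 0.42 on the log2 scale. Without control replicate 2, the lower, the log2 fold change was 0.72 in red-head and 0.70 in offspring, and without control replicate 1 it was 1.13 in each.

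Among the counts of the 3 G alpha genes, egl-30 took 32.3% (30.9 to 33.6) and 29.9% (27.4 to 32.6) in red-head germlines, 33.7% (31.9 to 35.5) and 33.3% (30.7 to 35.9) in offspring germlines and 24.2% (22.6 to 25.99) and 18.7% (16.9 to 20.7) in control germlines, with 95% Clopper-Pearson intervals. In both control libraries egl-30 was the least counted of the 3 genes, whereas in the other 4 libraries it was counted more often than gpa-16. The share does not depend on the scaling of the libraries. Its intervals cover counting error only, not the gap between replicates. These shares restate the counts for which egl-30 was singled out, so they are a description and no separate support.

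**Figure D2:**
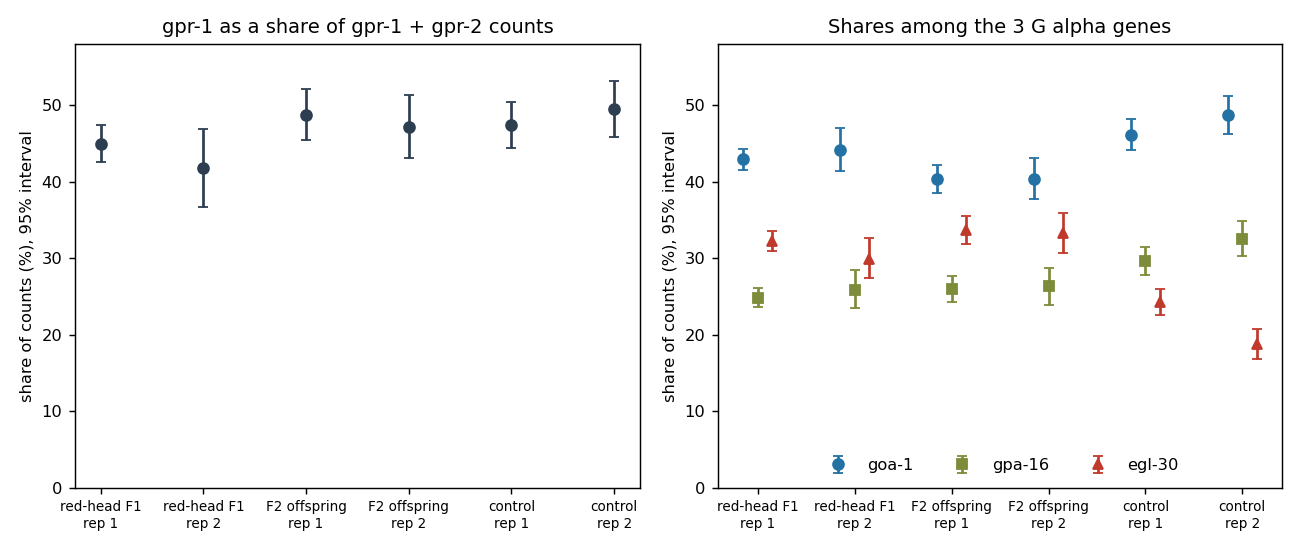
Shares of counts per library, in percent on an axis from 0, with 95% Clopper-Pearson intervals as bars: gpr-1 among gpr-1 and gpr-2 counts on the left panel, and goa-1, gpa-16 and egl-30 among their own sum on the right. The gpr-1 share runs from 41.8% to 49.5% with overlapping intervals, and the egl-30 share is 29.9% to 33.7% in red-head and offspring libraries against 24.2% and 18.7% in control. The intervals cover counting error only.

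Markers of other tissues differed between the libraries as well. Each marker sum covers the listed genes matched to a count row, tested or not. Muscle markers (7 of 7 tested) summed to 81.6 and 183 CPM in red-head germlines, 174 and 27.6 CPM in offspring germlines and 95.9 and 54.7 CPM in control germlines. Hypodermal markers (3 of 6 tested) summed to 37.8 and 98.8 CPM in red-head germlines, 88.2 and 21.6 CPM in offspring germlines and 39.5 and 30.99 CPM in control germlines. In offspring replicate 2 the intestinal, muscle and hypodermal sums were each below both control libraries. The neuronal and gonadal sheath sums of that library, given below, lay between those of the control libraries.

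Neuronal markers (3 of 8 tested) summed to 68.2 and 70.2 CPM in red-head germlines, 70.7 and 82.2 CPM in offspring germlines and 75.0 and 83.9 CPM in control germlines, and snb-1 gave most of each sum. The listed unc-17 was not matched to a count row and is not in these sums. The synaptic marker rab-3 was at 0 in red-head replicate 2 and offspring replicate 2, and at most 0.249 CPM elsewhere. Gonadal sheath markers (4 of 7 tested) summed to 113 and 124 CPM in red-head germlines, 189 and 124 CPM in offspring germlines and 178 and 122 CPM in control germlines. Most of each sum came from act-4 and inx-8. The sheath marker tnc-2 was at 0 in all red-head and offspring libraries. In control it was at 0.134 and 0.196 CPM, under the limit that a count of 0 allows. Sperm markers (4 of 8 tested) summed to 1.08 and 3.71 CPM in red-head germlines, 9.56 and 4.5997 CPM in offspring germlines and 17.5 and 9.22 CPM in control germlines, with msp-10 at 0 in both red-head libraries. The part of other tissues in the levels of the 8 genes, egl-30 included, was not tested in any group.

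**Figure D3:**
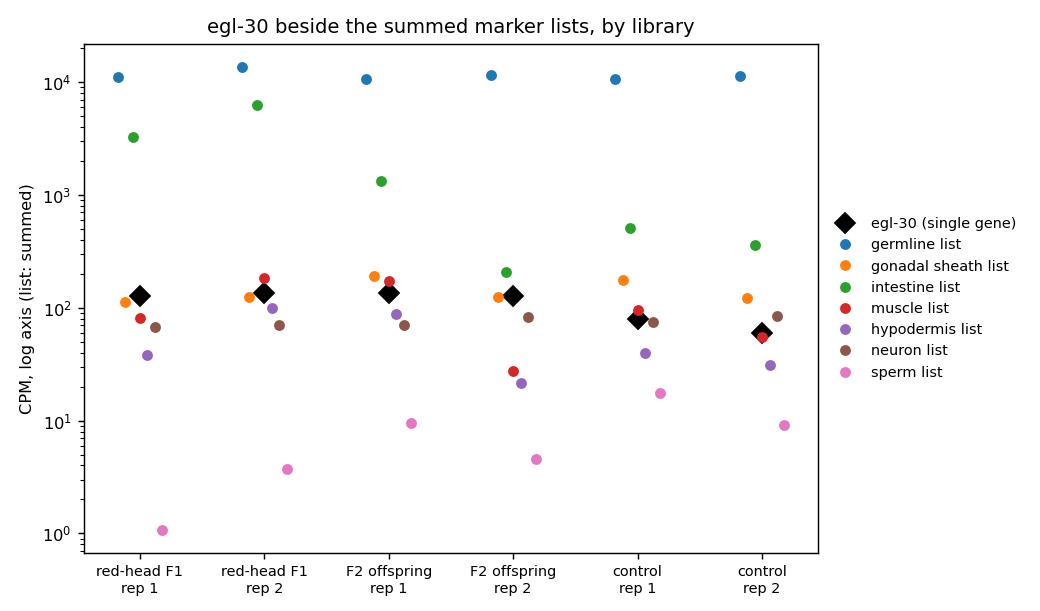
Level of egl-30 (diamonds) and summed level of each marker list (circles) in CPM on a log axis, by library, with red-head F1, F2 offspring and control from left to right. In offspring replicate 2 the intestine, muscle and hypodermis sums are 207, 27.6 and 21.6 CPM, below both controls, as is the sperm sum of 4.60 CPM. The neuron and gonadal sheath sums there, 82.2 and 124 CPM, lie between the controls, and egl-30 is at 126 CPM.

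The gene rows near egl-30 were read as well. On the side before egl-30, rpl-27, a ribosomal protein gene, had log2 fold changes of -0.71 in red-head and 0.10 in offspring, each against control. The row beyond rpl-27, C53H9.2, had -0.19 in red-head and 0.32 in offspring. On the side after egl-30, emr-1, which encodes emerin of the nuclear envelope, had -0.35 in red-head and 0.02 in offspring. In the annotation used here, 190 nt of egl-30 exons overlap 2 other genes on the same strand, a noncoding RNA and the protein-coding C53H9.4, and 143 nt of gpa-16 exons overlap a small nucleolar RNA. These 3 genes have no row in the count tables, so their part in the egl-30 and gpa-16 counts was not tested.

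Across all genes tested, 0 of 8117 (0%) were called in red-head against control by edgeR's quasi-likelihood test at a Benjamini-Hochberg adjusted p of 0.05, with 621 at an unadjusted p under 0.05, while DESeq2 called 95. None of the 8 genes was called by edgeR. Of the 7 other than egl-30, 1 (goa-1) was at an unadjusted p under 0.05 and DESeq2 called 0. Among these 7, gpr-2 and goa-1 had both red-head libraries above both control libraries, against 18.4% of all tested genes. For gpr-1 both lay below, against 19.6%. Over the 8, egl-30 included, the median log2 fold change was 0.06 and the median size 0.09, beside -0.01 and 0.17 over all tested genes.

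For offspring against control, edgeR called 10 genes, or 0.123%, all higher, and DESeq2 called 17. None of the 8 genes was called by edgeR, and of the 7 other than egl-30, 0 were at an unadjusted p under 0.05 and DESeq2 called 0. Among these 7, 0 had both offspring libraries above both control libraries, against 16.4% of all tested genes, and 0 had both below, against 16.6%. Over the 8, egl-30 included, the median size of the log2 fold change was 0.03, beside 0.14 over all tested genes.

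**Figure D4:**
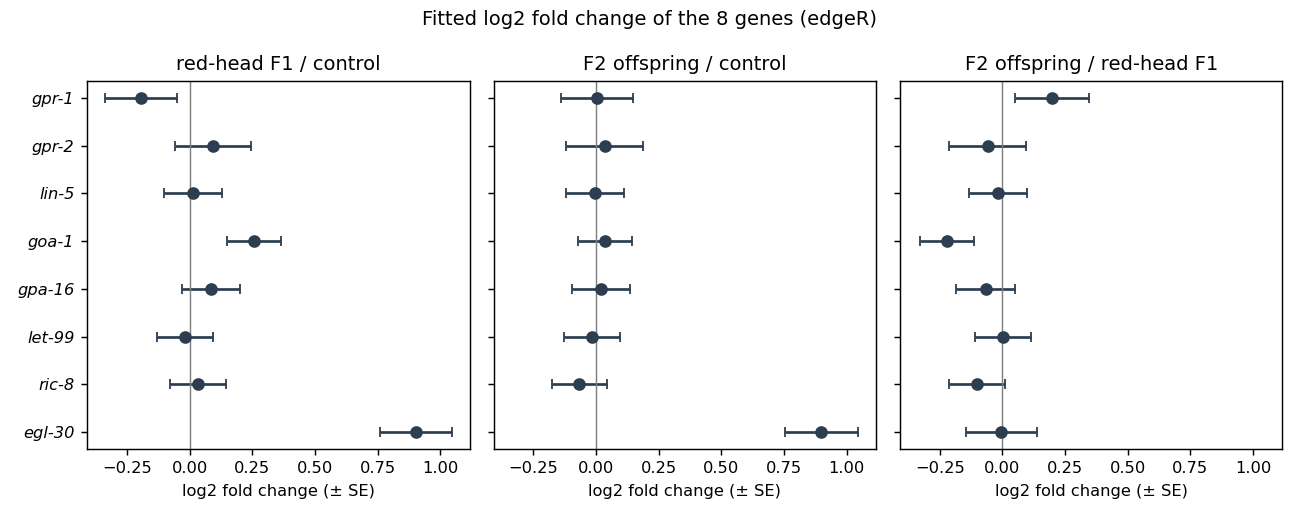
Fitted log2 fold change of each of the 8 genes (points, with SE bars) for red-head F1 over control, F2 offspring over control and F2 offspring over red-head F1. Only egl-30 lies far from 0 in the comparisons with control, at 0.90 in each, and at -0.00 between offspring and red-head.

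Offspring were also set against the red-head germlines they came from. The largest differences among the 8 were in goa-1, with a log2 fold change of -0.22 ± 0.11 (SE) and an adjusted p of 0.540 in edgeR's quasi-likelihood test, and in gpr-1, with 0.20 ± 0.15 and an adjusted p of 0.688. With 1 library left out, goa-1 ranged from -0.36 (without red-head replicate 1) to -0.11 (without red-head replicate 2), and gpr-1 from 0.04 (without offspring replicate 2) to 0.36 (without offspring replicate 1). Both offspring libraries lay below both red-head libraries for goa-1, and the groups overlapped for the other 7 genes. For egl-30 the log2 fold change was -0.00 ± 0.14, and for ric-8 it was -0.10 ± 0.11. None of the 8 was called by edgeR, 0 were at an unadjusted p under 0.05 and DESeq2 called 0. Over all genes edgeR called 1, or 0.0123%, and DESeq2 called 127. Both offspring libraries were above both red-head libraries in 20.4% of all tested genes and below both in 17.5%, against 0 and 1 of the 8.

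Per kb of transcript, lin-5 led the 8 genes in each group. Per kb of the longest transcript and averaged over the 6 libraries, it was at 152 ± 8.57 CPM per kb (SD), let-99 at 117 ± 6.72 and goa-1 at 81.6 ± 8.89, and the ranges of these 3 did not overlap with each other or with the genes below. The other 5 followed at 45.5 ± 4.46 for gpr-2, 39.7 ± 2.77 for gpa-16, 39.4 ± 4.23 for gpr-1, 34.8 ± 1.70 for ric-8 and 31.4 ± 9.21 for egl-30, and each overlapped its neighbour in this order. The place of egl-30 differed between groups, since its mean was 37.3 CPM per kb in red-head germlines, above ric-8 at 35.9 and gpr-1 at 35.8, and 37.1 in offspring germlines, above ric-8 at 33.5, but 19.8 in control germlines, the lowest of the 8. Among all tested genes, lin-5 was at the 90.0 to 92.1 percentile of the levels per length, and egl-30 at 52.5 to 54.4 in red-head and offspring libraries and at 42.0 and 38.1 in control libraries.

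The order was different per kb of coding sequence. Over the 6 libraries lin-5 averaged 166 ± 9.36 CPM per kb of coding sequence (SD) and goa-1 155 ± 16.9, overlapping it. By group, goa-1 was the higher in red-head germlines, at a mean of 173 against 167 for lin-5, and lin-5 was the higher in offspring germlines, at 165 against 148, and in control germlines, at 165 against 144. The mean of egl-30 was 123 in red-head germlines and 122 in offspring germlines, above gpa-16 at 100.1 and 94.9, and 65.4 in control germlines, below gpa-16 at 93.7. On this scale gpr-1 was the lowest of the 8 in each group. The counts were made on an older annotation than the one that gave these lengths, and reads matching both gpr genes may be missing. The order between genes is thus approximate.

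By the median over the genes, replicates of the 8 were closer than those of all tested genes. The median gap between the 2 libraries of a group, on the log2 scale, was 0.12 over the 8 in red-head germlines, 0.14 in offspring germlines and 0.07 in control germlines, beside 0.29, 0.21 and 0.17 over all tested genes. The tested genes include many with lower counts than these 8, and the part of depth in this gap was not tested. The widest gap was 0.26 in red-head (gpa-16), 0.42 in offspring (gpr-2) and 0.42 in control (egl-30). Those of gpr-2 and egl-30 exceeded the median of all tested genes, as did gpr-1 in offspring at 0.33.

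The genes around the force generators were looked at through 5 lists, and edgeR called 0 of their tested genes in any comparison at the adjusted threshold. Of the 4 beta and gamma subunit genes, 2 passed the filter. The G beta gene gpb-1, which acts with GOA-1 and GPA-16 on spindle position, was at 173 and 220 CPM in red-head germlines, 181 and 204 CPM in offspring germlines and 189 and 187 CPM in control germlines. The groups overlapped. The G gamma gene gpc-2 had log2 fold changes of -0.17 ± 0.35 (SE) in red-head and 0.21 ± 0.35 in offspring.

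Of 18 other G alpha genes, 3 passed the filter, and all were low. The highest was gsa-1, the Gs alpha subunit, at 5.57 and 6.32 CPM in red-head germlines, 7.39 and 3.16 CPM in offspring germlines and 4.57 and 4.71 CPM in control germlines. The largest fold changes were in gpa-4, at 1.40 ± 0.95 (SE, log2) in red-head and 1.42 ± 0.97 in offspring, but its level never passed 2.87 CPM. Over all 18 the summed level was 11.8 and 13.4 CPM in red-head germlines, 13.9 and 10.1 CPM in offspring germlines and 11.4 and 11.8 CPM in control germlines, under the level of gpa-16 alone.

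All 16 genes for dynein, dynactin and their adaptors were tested. Per length the dynein light chain gene dlc-1 was the highest, at a mean of 408 CPM per kb, and in CPM the heavy chain gene dhc-1, the motor itself, was the highest, at 2435 and 2788 in red-head, 2647 and 3251 in offspring and 2718 and 2569 in control. The largest log2 fold changes were in dnc-3, a dynactin subunit, at -0.48 ± 0.24 (SE) in red-head, and in bicd-1 at -0.48 ± 0.44 in offspring. In red-head 3 of the 16 had both libraries above both controls and 4 had both below, beside 18.4% and 19.6% of all tested genes. In offspring these counts were 5 and 1, beside 16.4% and 16.6%. The median log2 fold change was 0.01 in red-head and 0.06 in offspring.

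All 10 cortical regulators were tested, from the kinases csnk-1, ppk-1 and air-1 to the microtubule regulators zyg-8, zyg-9, tac-1 and klp-7. The actin gene act-2 was the highest, at 1061 CPM per kb. In red-head the largest log2 fold change was 0.26 ± 0.46 (SE), in rgs-7, which encodes a regulator of G protein signalling. In offspring it was 0.29 ± 0.10, in tac-1, which encodes a partner of ZYG-9 at centrosomes. The tac-1 RNA was at 179 and 193 CPM in red-head germlines, 183 and 202 CPM in offspring germlines and 158 and 157 CPM in control germlines, so both groups were above both controls, with an adjusted p of 0.628 for red-head and 0.999 for offspring in edgeR's quasi-likelihood test. In red-head 4 of the 10 had both libraries above both controls and 1 had both below, beside 18.4% and 19.6% of all tested genes, and in offspring 4 and 0, beside 16.4% and 16.6%.

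Of 11 Gq and Go pathway partners, 10 were tested and most were low. The small GTPase gene rho-1, a target of Gq signalling in neurons, was the highest at 96.8 CPM per kb, and was at 180 and 156 CPM in red-head germlines, 197 and 174 CPM in offspring germlines and 186 and 178 CPM in control germlines. The largest log2 fold changes were in unc-13, a synaptic vesicle priming gene, at 0.90 ± 0.84 (SE) in red-head, and in grk-2, a receptor kinase gene, at -0.88 ± 0.65 in offspring. Their highest levels in any library were 1.91 CPM for unc-13 and 4.57 CPM for grk-2. The phospholipase C beta gene egl-8, the main effector of EGL-30, was at 27.3 and 11.1 CPM in red-head germlines, 24.5 and 14.4 CPM in offspring germlines and 26.9 and 19.4 CPM in control germlines, and did not follow the pattern of egl-30.

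**Figure D5:**
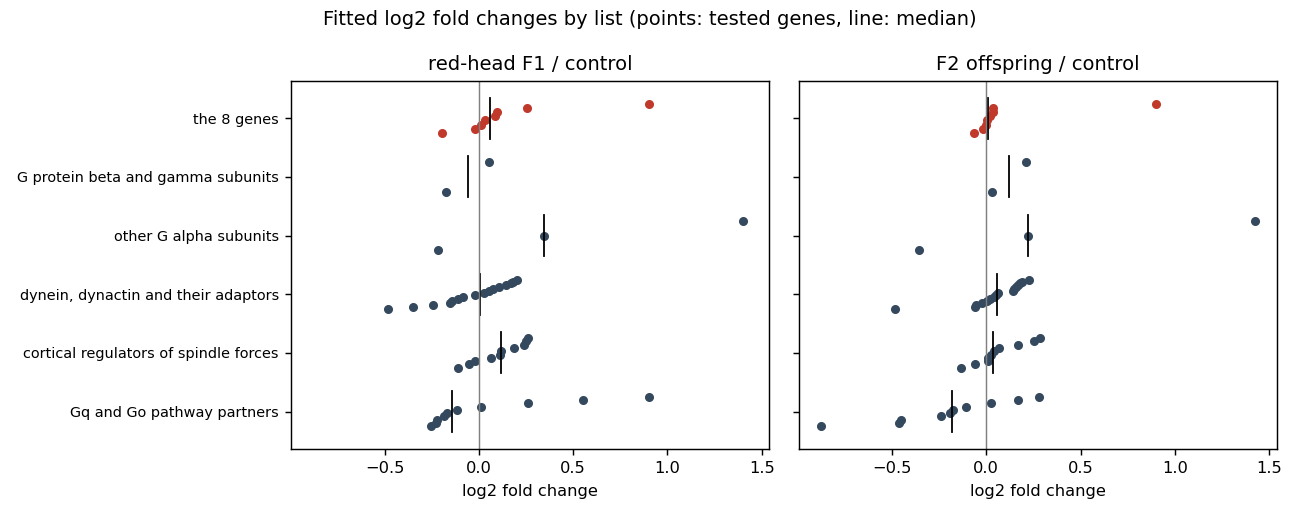
Fitted log2 fold changes of the 8 genes and of the tested genes of 5 lists (points, with the median as a line) in red-head F1 over control and F2 offspring over control. The egl-30 point at 0.90 stands alone to the right of the 8 genes in both panels, and the wide points of the low lists are gpa-4, unc-13 and grk-2.

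The genes whose level over the 6 libraries was most like that of egl-30, by Pearson's r of log2 CPM, were unc-36 (r = 0.994), W02H5.9 (0.988), taf-2 (0.982) and the histone genes his-44 (0.972) and his-15 (0.971), and 16 of the 8117 tested genes had an r above 0.95. The range of his-44 was far wider than that of egl-30, with 727 and 587 CPM in red-head germlines, 1245 and 1364 CPM in offspring germlines and 90.1 and 25.7 CPM in control germlines, while taf-2 spanned only 132 to 144 CPM. For gpr-1 they were K02D10.3 (0.980), dhcr-7 (0.968), dgtr-1 (0.962), Y47H9C.9 (0.958) and dpm-3 (0.954), and 8 genes had an r above 0.95. The 6 points of each correlation share their libraries and depth, and unc-36 and K02D10.3 stood at no more than 2.97 and 3.45 CPM in any library. The level of egl-30 differed mostly between control and the other groups. Its ranking thus restates the difference for which it was singled out.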

How the data were processed

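RNA from distal gonad arms was rRNA-depleted and sequenced as 50 bp single-end reads with a kit that does not mark strand, in 2 libraries per group, called biological replicates by the study; where nothing more is given on their origin, p-values measure the spread between these samples. The authors deposited raw HTSeq counts per gene, made on WS220 after alignment with TopHat2 (versions not given in the sources used here). Rows that name no gene, at 10.7% to 15.2% (no feature) and 1.59% to 2.15% (ambiguous) of reads, were left out. A deposited table of the authors' own DESeq2 comparisons (mean level, log2 fold change, adjusted p) was not used.

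Counts were fitted in R 4.3.3 with edgeR 4.0.16 (filterByExpr, TMM, glmQLFit over all 6 libraries, glmQLFTest, Benjamini-Hochberg adjustment over 8117 tested genes, threshold 0.05). CPM are TMM-scaled, and log2 CPM for correlations used a prior count of 2. Standard errors were derived from the fold change and its F statistic. Of the gene names, 44936 of 45461 matched an annotation (WBcel235), which gave symbols, chromosomes and lengths only. Intervals of shares are exact at 95% and cover counting error, and the floor of a count of 0 is 3 counts.

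The 8 genes, the lists of partners and markers, and the tests were chosen with earlier results of these data known. Named were the 8 genes, in each list the highest gene and the largest fold changes (other list genes named in passing carry their own values or none), and the 5 genes most correlated with gpr-1 and with egl-30. Alternatives were DESeq2 1.42.0, the 4 libraries compared, RLE factors, scaling by library size, a fit with all counted genes, a minimum of 10 counts in each library, a replicate block, each library left out, libraries whose names share a tag, and gpr-1 and gpr-2 summed. The fit was also run on counts simulated from its own estimates of spread, which cannot show whether those estimates suit these data. Depth ran from 2721055 to 11310273 counts on genes, so red-head replicate 2 has the least precise values. The correlation of deviations of same-numbered libraries was -0.091 for red-head and control, 0.392 for offspring and control and 0.0337 for offspring and red-head.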

Additional observations from a re-analysis of the deposited data

How the results depend on the processing

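The number of genes called depended on the test. For red-head against control it was 0 in edgeR, 95 in DESeq2, 8 with only the 4 libraries compared, 355 without a filter on low counts, 7 with a replicate block and 0 to 54 when 1 library was left out, with 54 without red-head replicate 2. For offspring against control it was 10 in edgeR, 17 in DESeq2, 68 without a filter, 4 with library size only and 4 to 14 with 1 library left out. For offspring against red-head it was 1 in edgeR, 127 in DESeq2, 5 with the 4 libraries compared, 383 without a filter, 6 with RLE factors, 3 with library size only, 6 with at least 10 counts, 7 with the replicate block and 0 to 69 with 1 library left out.

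The count of the 8 genes called was 1 in each comparison with control by DESeq2 and by edgeR without a filter, and 0 under each of the other alternatives. That gene was egl-30, which had been singled out from these same values, so its crossing of the threshold is a description and no test of it. The edgeR fit without a filter estimated an infinite prior df for the spread, against 4.33 with the filter. Over the alternatives egl-30 had a log2 fold change of 0.72 to 1.13 in red-head and 0.70 to 1.13 in offspring, each against control. Offspring replicate 1 and control replicate 1 share a tag in their file names, as do offspring replicate 2 and red-head replicate 2, and what the tags mean is not given in the sources used here. Between offspring and control with a shared tag, a value with no test, the log2 fold change was 0.75 for egl-30 and -0.202 for gpr-2. Between offspring and red-head with a shared tag it was 0.416 for gpr-1, 0.098 for gpr-2, -0.377 for goa-1, -0.225 for gpa-16 and 0.188 for let-99. The 2 replicate numbers were taken as names, not pairs, and the block changed no call among the 8 genes.

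Directions of the 8 genes and of the gpr sum changed only where the reported log2 fold change was smaller than its standard error. With library size only, the log2 fold change against control was 0.010 for let-99 in red-head, and -0.077 for gpr-1, -0.045 for gpr-2, -0.043 for goa-1 and -0.060 for gpa-16 in offspring. For gpr-1 in offspring it was -0.0083 with at least 10 counts and -0.00088 with the replicate block. For let-99 in offspring against red-head it was -0.011 in DESeq2, -0.029 with the 4 libraries compared, -0.0076 with RLE factors, -0.106 with library size only, -0.0015 without a filter and -0.012 with at least 10 counts. Scaling by library size moved the median of all genes by -0.107 in that comparison.

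Leaving out 1 library, red-head against control ranged from -0.243 to -0.142 for gpr-1, 0.059 to 0.148 for gpr-2, 0.144 to 0.387 for goa-1, 0.0061 to 0.067 for ric-8, -0.046 to 0.087 for lin-5, -0.033 to 0.227 for gpa-16 and -0.131 to 0.091 for let-99. Offspring against control ranged from -0.164 to 0.167 for gpr-1, -0.181 to 0.238 for gpr-2, -0.111 to 0.100 for lin-5, -0.026 to 0.059 for gpa-16, -0.079 to 0.049 for let-99, -0.145 to 0.016 for ric-8 and -0.173 to 0.204 for the gpr sum. Offspring against red-head ranged from 0.037 to 0.364 for gpr-1, -0.356 to -0.106 for goa-1, -0.172 to -0.014 for ric-8, -0.268 to 0.148 for gpr-2, -0.118 to 0.090 for lin-5, -0.213 to 0.054 for gpa-16, -0.104 to 0.110 for let-99, -0.064 to 0.045 for egl-30 and -0.127 to 0.246 for the gpr sum. The depth of red-head replicate 2 limits the precision of its comparisons, and of the libraries left out in turn it gave the highest counts of called genes in both comparisons with red-head, 54 and 69.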
